A study of Homo sapiens with 6 samples.

Results

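The negative feedback arm of the Wnt pathway was examined in RKO cells, an established line from a human colon carcinoma, through 10 genes that Wnt signalling is known to induce and whose products restrain or tune it. They were AXIN2, NKD1, NOTUM, RNF43, ZNRF3, DKK1, APCDD1, KREMEN1, LGR5 and SP5, taken by symbol from count tables of 28278 gene symbols, and all 10 symbols were present. The list was chosen with earlier results of these data known. Polyadenylated RNA was sequenced from 3 libraries of cells labelled GSK3B wild type and 3 of cells labelled GSK3B knockout, with no other treatment named in either group. How the knockout was made, whether it is 1 clone and whether replicates were separate cultures are not in the labels, so p-values measure only the spread between these libraries, which may be technical.

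Wnt ligands bind a Frizzled receptor together with LRP5 or LRP6, and this stops a complex of AXIN, APC, casein kinase 1 and GSK3 from marking beta-catenin for destruction. Beta-catenin then accumulates and, with TCF/LEF factors, switches on target genes, many of which encode brakes on the same pathway. GSK3B and its paralog GSK3A are both able to phosphorylate beta-catenin. In the intestine this circuit maintains stem cells at the base of the crypt, and RKO is known as a colon cancer line without the usual APC or beta-catenin mutations.

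Total counts were 32379369 to 33558362 per library. The targeted gene GSK3B averaged 96.0 ± 4.05 CPM (counts scaled to a library size of 1000000) over wild-type and 46.8 ± 0.789 CPM over knockout libraries (SD, n = 3 per group), so the libraries labelled knockout kept 48.8% of its RNA level. Of 12 markers of colon epithelium, CDH1, CDX1, LGALS4 and CEACAM5 were listed at 0 in all 6 libraries. KRT19, KRT20 and GPA33 had at most 5 counts in any library, while KRT8, KRT18, VIL1, CDX2 and EPCAM had at least 34 in each. EPCAM, named here after its values were seen, fell from a mean of 3.43 ± 0.951 to 1.07 ± 0.0394 CPM (SD, n = 3; -1.68 on the log2 scale; edgeR, adjusted p = 2.59e-05). It was the only colon marker called. The other tested ones stood at -0.06 (KRT8), 0.10 (KRT18), 0.04 (VIL1) and 0 (CDX2) on the log2 scale (edgeR, lowest adjusted p = 0.164, for KRT18). The summed level of the 12 markers, carried mostly by KRT18 and KRT8, was 136 to 143 CPM in wild type and 139 to 144 CPM in knockout. The summed level of 6 fibroblast markers was 2.19 to 5.89 CPM in wild type and 0.87 to 1.14 CPM in knockout, and none of the 6 was at 0 throughout. Wild-type replicate 3 stood apart in them, with 61 counts of COL1A1 and 25 of DCN against at most 19 and 1 in the other libraries. PDGFRB, another of the 6, had 53 to 70 counts in wild-type and 18 to 26 in knockout libraries. The part of these markers and of EPCAM in the results was not tested, and values without wild-type replicate 3 are given where leaving it out ended a call. In bulk RNA, fewer cells of a type and less RNA per cell cannot be told apart.

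Of the 10 feedback genes 6 had enough counts to be tested, and 4 of these fell in the knockout: AXIN2, NKD1, NOTUM and KREMEN1. Their levels were 61.7% to 81.2% of wild type, and AXIN2 and NOTUM, at 66.4% and 61.7%, had the lowest shares. ZNRF3 and SP5, at 97.5% and 82.2% of wild type, did not pass the test, and 0 of the 6 rose. RNF43, LGR5, DKK1 and APCDD1 had too few counts for a test. The test was edgeR's quasi-likelihood test across 14409 genes with Benjamini-Hochberg adjustment and a threshold of 0.05, which called 7.18% of all tested genes lower and 6.36% higher (13.5% in either direction). At an unadjusted p under 0.05, which 14.1% of all tested genes passed lower and 13.9% higher, the same 4 genes were lower and 0 were higher, while AXIN2, NKD1 and KREMEN1 were lower and 0 higher in DESeq2 (6.66% of all tested genes lower), in limma-voom (6.87%) and after a correction for GC content (7.39%). The wild-type and knockout libraries did not overlap in those 4 genes, where 15.9% of all tested genes were lower without overlap and 31.3% did not overlap in either direction. The lowest count of a tested member in any library was 37, above the minimum of 10, so none was admitted through 1 group alone. The median log2 fold change of the 6 was -0.31, beside 0.00 over all tested genes. Because the genes were chosen with earlier results known, these counts and shares describe the list and do not test it. Without wild-type replicate 3 the number that fell was 3, beside 7.03% of all tested genes. It was 2, NKD1 and KREMEN1, without wild-type replicate 2 or without knockout replicate 3, where the share of all tested genes that fell was also lower, at 4.22% and 4.51%.

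**Figure D1:**
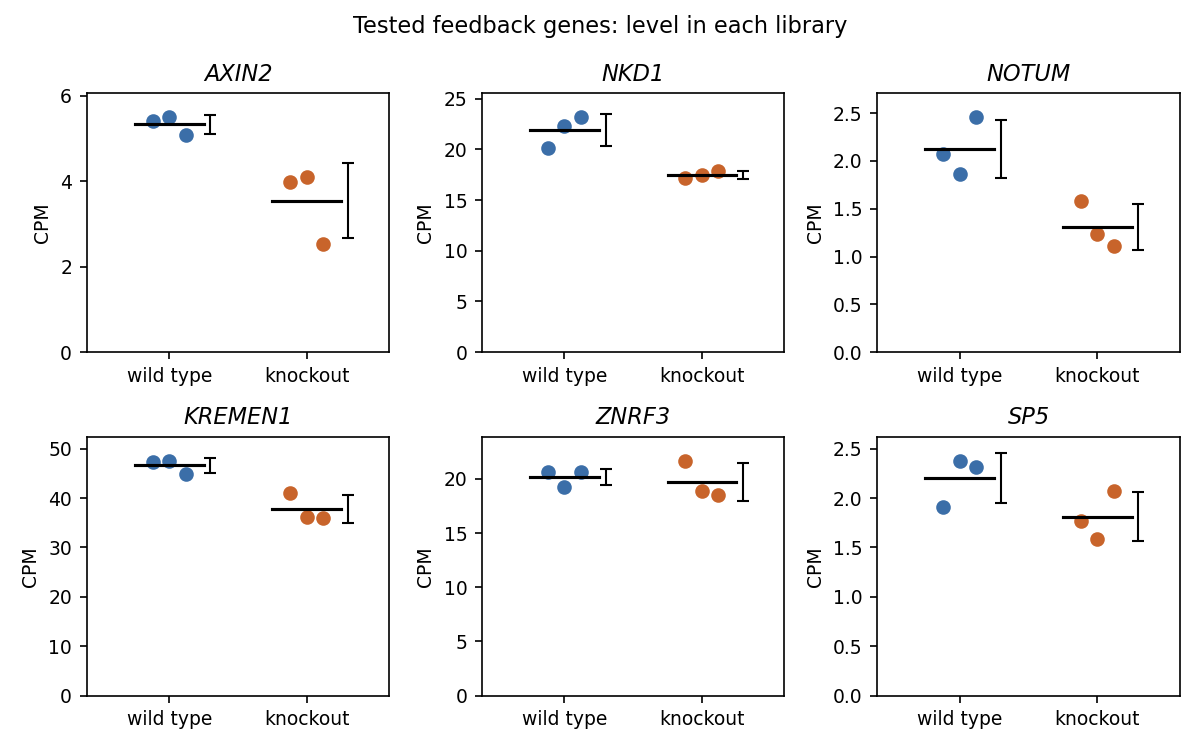
Level in CPM (vertical axes, each starting at 0) of the 6 tested feedback genes in the 3 wild-type and 3 knockout libraries. Points are libraries in the order of replicates 1 to 3, horizontal lines are means and bars are 1 SD. The groups do not overlap in AXIN2, NKD1, NOTUM and KREMEN1 and overlap in ZNRF3 and SP5.

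AXIN2 encodes a scaffold of the beta-catenin destruction complex and is a widely used readout of Wnt signalling. It had 5.41, 5.50 and 5.07 CPM across wild-type replicates 1 to 3 and 3.99, 4.10 and 2.52 CPM across the knockout replicates. Every knockout library lay below every wild-type library, and knockout replicate 3 lay below the other two. The counts behind these levels were 178, 180 and 169 in wild type and 131, 132 and 84 in knockout. The exact Poisson interval of the count of 84 was 67.0 to 104 and that of 131 was 110 to 155, which covers counting error only. The knockout libraries therefore differed among themselves by more than counting error. AXIN2 changed by -0.59 ± 0.16 on the log2 scale (SE, n = 3 per group; edgeR, adjusted p = 0.0165; 95% interval -0.93 to -0.26). This was 66.4% of the wild-type level, with an interval of 52.7% to 83.7%, and 2.92% of tested genes had a more negative fold change. Without knockout replicate 3 the change shrank to -0.40 and was not called (edgeR, adjusted p = 0.113). Without wild-type replicate 2 it was also not called, but the value hardly moved, at -0.57 (edgeR, adjusted p = 0.0714). In these 2 fits 4.51% and 4.22% of all tested genes fell, beside 7.18% with all 6 libraries. Over all alternatives its adjusted p ran from 0.00192 to 0.113. AXIN2 is on the minus strand of chromosome 17, 65528563 to 65561647 (hg38, GENCODE 29), and it shares exon positions with another annotated transcript on the same strand.

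NKD1 encodes Naked cuticle homolog 1, a cytoplasmic protein that binds Dishevelled and dampens the signal downstream of the receptors. NKD1 reads gave 20.1, 22.3 and 23.2 CPM across wild-type replicates 1 to 3 and 17.2, 17.5 and 17.9 CPM across the knockout replicates. The knockout libraries were close together and the lowest wild-type library, replicate 1, still lay above them. NKD1 changed by -0.32 ± 0.08 on the log2 scale (SE, n = 3 per group; edgeR, adjusted p = 0.00666; 95% interval -0.48 to -0.16), or to 80% of wild type. It passed in each of the 16 alternative fits, with adjusted p-values from 0.00122 to 0.0398. The gene is on the plus strand of chromosome 16, 50548330 to 50649249. Its paralog NKD2 had a wild-type mean of 12 ± 0.21 CPM and a knockout mean of 9.56 ± 0.472 CPM (SD, n = 3), a log2 fold change of -0.33 ± 0.09 (SE; edgeR, adjusted p = 0.0207). NKD2 no longer passed after a correction for GC content (-0.21, adjusted p = 0.11) or when wild-type replicate 2, or knockout 1 or 3, was left out, and its highest adjusted p over the alternatives was 0.116.

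NOTUM encodes a secreted enzyme that removes the palmitoleate lipid from Wnt proteins and so inactivates the ligand outside the cell. It had 2.07, 1.86 and 2.46 CPM across wild-type replicates 1 to 3 and 1.58, 1.24 and 1.11 CPM across the knockout replicates. The groups did not overlap, but the counts were low, at 61 to 82 in wild type and 37 to 52 in knockout. The exact Poisson interval of the lowest wild-type count, 61, was 46.7 to 78.4 and that of the highest knockout count, 52, was 38.8 to 68.2, so those libraries did not differ beyond counting error. NOTUM changed by -0.70 ± 0.23 on the log2 scale (SE, n = 3 per group; edgeR, adjusted p = 0.0497; 95% interval -1.18 to -0.21), or to 61.7% of wild type, with an interval of 44.1% to 86.3%. That call lay at the threshold: NOTUM passed in 4 of the 16 alternatives, and its adjusted p ran from 0.037 to 0.168. It did not pass in DESeq2 (adjusted p = 0.0715), in limma-voom (0.056), after the GC correction (-0.58, adjusted p = 0.0795), or in any of the fits without 1 library, among them -0.58 without wild-type replicate 3 (adjusted p = 0.158). Its change was negative in each of these fits. The gene is on the minus strand of chromosome 17, 81952507 to 81961840, and its longest transcript has 66.5% GC, above the 75th percentile of tested genes (56.7%).

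KREMEN1 and DKK1 act together at the cell surface. DKK1 is a secreted antagonist that binds LRP5 and LRP6, and KREMEN1 is a transmembrane receptor for DKK1 that helps to take the complex into the cell. KREMEN1 was the feedback gene with the highest CPM, at 47.3, 47.6 and 44.8 CPM across wild-type replicates 1 to 3 and 41.1, 36.2 and 36.0 CPM across the knockout replicates. The groups did not overlap, and knockout replicate 1 was nearest to wild type. KREMEN1 changed by -0.30 ± 0.06 on the log2 scale (SE, n = 3 per group; edgeR, adjusted p = 0.00194; 95% interval -0.43 to -0.17), or to 81.2% of wild type. It passed in each of the 16 alternatives, with adjusted p-values from 4.71e-05 to 0.022. KREMEN2, its paralog and named here after its values were seen, had a wild-type mean of 21.6 ± 1.76 CPM and a knockout mean of 21.1 ± 0.531 CPM (SD, n = 3), with a log2 fold change of -0.04 ± 0.08 (SE; 95% interval -0.19 to 0.12; edgeR, adjusted p = 0.791).

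DKK1 had 0 counts in 5 libraries and 2 in knockout replicate 2. The exact Poisson interval of a count of 0 runs up to 3.69 counts, and that of the count of 2 from 0.242 to 7.22 counts (both cover counting error only). In these libraries 3 counts correspond to 0.0901 to 0.0933 CPM. These counts do not resolve a difference, and no fold is given. Genes that dividing cells generally use, such as FBL, HYOU1 and ZYX, are also listed at 0 in these tables, so a 0 was not read as absence of expression.

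ZNRF3 and RNF43 are related transmembrane ubiquitin ligases that remove Frizzled receptors from the cell surface, and LGR5 is an R-spondin receptor that helps to clear those ligases and marks intestinal stem cells. ZNRF3 had 20.6, 19.3 and 20.6 CPM across wild-type replicates 1 to 3 and 21.7, 18.9 and 18.5 CPM across the knockout replicates. The groups overlapped, and the highest and lowest libraries were both knockouts. Its log2 fold change was -0.04 ± 0.08 (SE, n = 3 per group; edgeR, adjusted p = 0.812), and the 95% interval of -0.20 to 0.13 runs from 87.2% to 109% of wild type. The estimates of AXIN2 (-0.59), NKD1 (-0.32), NOTUM (-0.70) and KREMEN1 (-0.30) thus lie outside the interval of ZNRF3. The intervals of NKD1 and KREMEN1 reach up to -0.16 and -0.17 and so overlap that of ZNRF3. The fold change of ZNRF3 had no stable sign: it stood at 0.01 after the GC correction and at 0.01 without knockout replicate 3.

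RNF43 had 4, 6 and 6 counts across wild-type replicates 1 to 3 and 11, 9 and 6 across the knockout replicates, or 16 and 26 in all. The groups overlapped at 6 counts. In a fit with no filter on low counts its log2 fold change was 0.70 ± 0.71 (SE; edgeR, adjusted p = 0.625), so a difference was not detectable at this depth. RNF43 shares exon positions with AC004687.2 and SUPT4H1 on its own strand and with the antisense gene TSPOAP1-AS1; the overlap with AC004687.2 is the longest. A strand setting, which is not stated, would separate only TSPOAP1-AS1. How reads in shared exons were counted is not stated either. Some of these few reads may belong to those genes, or reads of RNF43 may have been left out. LGR5 had 4 counts in wild-type replicate 2, 3 in knockout replicate 2 and 0 in the other libraries. APCDD1, a membrane glycoprotein that binds Wnt and LRP5 and blocks signalling at the surface, had 1 count in wild-type replicate 2 and 0 elsewhere. All counts of LGR5, DKK1 and APCDD1 thus came from the libraries numbered 2, and 7 is the largest number of counts that any of the 3 genes had in all.

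**Figure D2:**
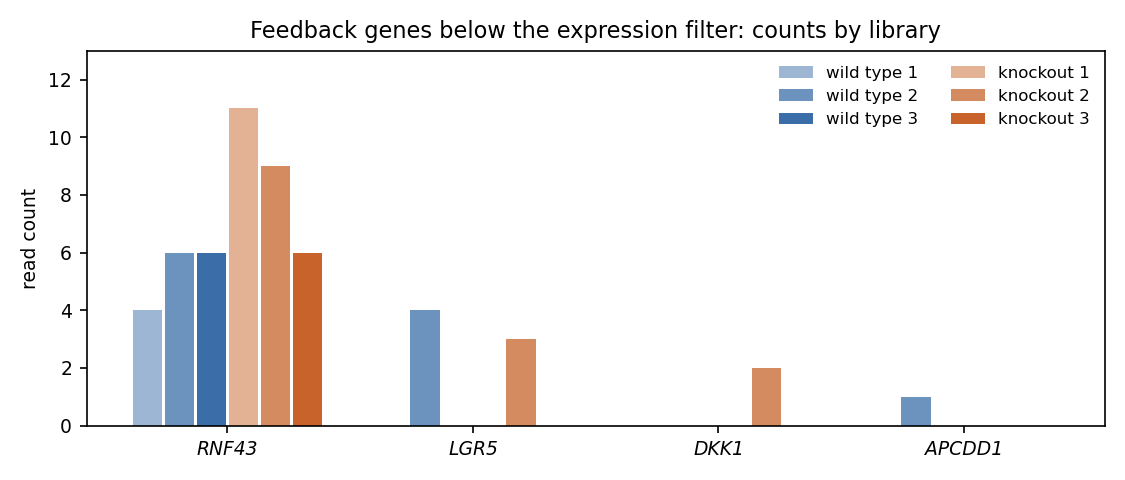
Read counts (vertical axis, not normalized) of the 4 feedback genes below the expression filter, 1 bar per library. RNF43 has 4 to 11 counts in each library, and the other genes have counts in 1 or 2 libraries only.

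SP5 encodes a zinc finger factor of the SP family that Wnt signalling is known to induce directly and that modulates transcription at other Wnt targets. Its RefSeq promoter and that of DKK1 are shown because these are the feedback promoters in the reference table that held TCF/LEF-type motifs. The windows hold 250 bases before and 50 bases after the start of the gene on GRCh38.p14, both on the plus strand, at chr2:170715087-170715386 for SP5 and chr10:52314031-52314330 for DKK1. Capitals mark the motif CTTTGNN, with each N an A or a T, on either strand; the motifs found do not overlap one another.
SP5: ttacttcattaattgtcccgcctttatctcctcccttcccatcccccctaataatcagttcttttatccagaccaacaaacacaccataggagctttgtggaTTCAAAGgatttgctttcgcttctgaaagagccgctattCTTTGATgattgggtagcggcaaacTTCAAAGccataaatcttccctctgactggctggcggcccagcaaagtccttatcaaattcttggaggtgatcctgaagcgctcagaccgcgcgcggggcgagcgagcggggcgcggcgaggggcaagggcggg
DKK1: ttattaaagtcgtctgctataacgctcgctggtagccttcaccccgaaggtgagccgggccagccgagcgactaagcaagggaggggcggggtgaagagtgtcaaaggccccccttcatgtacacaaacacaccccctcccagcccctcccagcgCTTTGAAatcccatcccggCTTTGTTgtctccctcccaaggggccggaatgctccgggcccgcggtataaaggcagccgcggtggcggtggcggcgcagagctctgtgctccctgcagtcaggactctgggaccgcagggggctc
SP5 held 3 motifs, with first bases at -148, -109 and -84 from the start, and DKK1 held 2, at -95 and -76. The table had promoters of 4 feedback genes; those of RNF43 and APCDD1 held 0. Of 27305 promoters of this length 13.9% held at least 1 such motif. A match describes letters in the window and is not evidence of binding.

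The level of SP5 was 1.91, 2.38 and 2.31 CPM across wild-type replicates 1 to 3 and 1.77, 1.59 and 2.07 CPM across the knockout replicates. The groups overlapped, since knockout replicate 3 lay above wild-type replicate 1. The log2 fold change of SP5 was -0.28 ± 0.21 (SE, n = 3 per group; edgeR, adjusted p = 0.418), or 82.2% of wild type. Its 95% interval of -0.73 to 0.16 contains both no change and the values of AXIN2, NKD1, NOTUM and KREMEN1. With 51 to 78 counts per library, SP5 could not be told apart from any of these. Its longest transcript has 66.2% GC, and after the GC correction its value was -0.16 (adjusted p = 0.661). The promoters with motifs belonged to a gene whose change was not resolved and to a gene with 2 counts in all. Promoters of AXIN2, NKD1, NOTUM, KREMEN1, ZNRF3 and LGR5 were not in the reference and were not searched. Motifs could therefore not be set against the genes that fell.

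**Figure D3:**
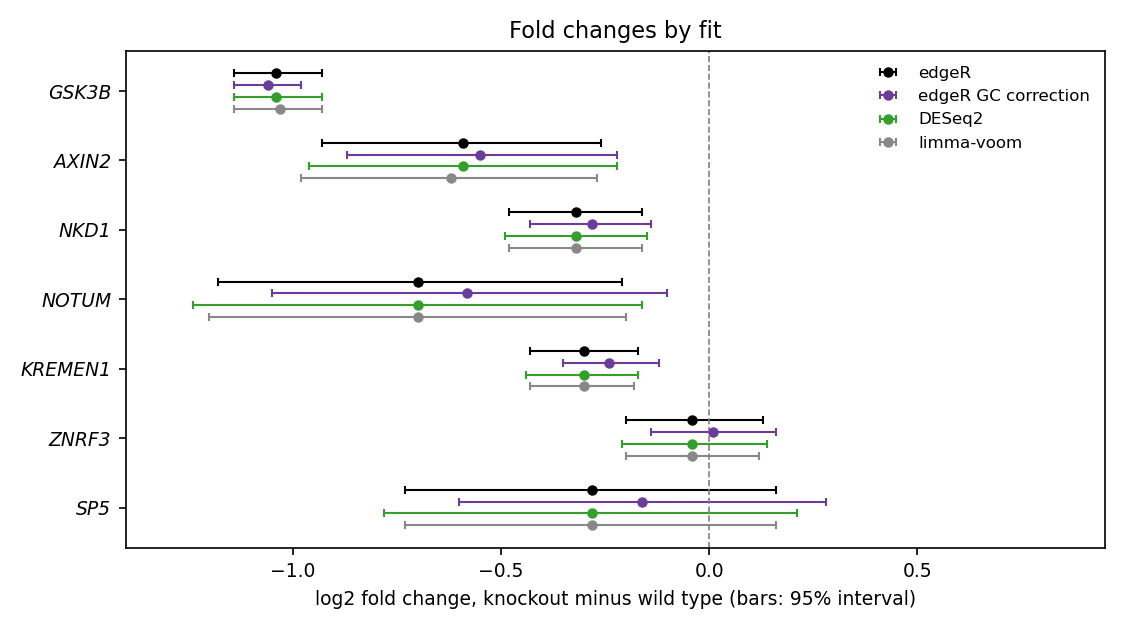
Log2 fold change (horizontal axis, knockout minus wild type) of GSK3B and the 6 tested feedback genes in edgeR, edgeR with a correction for GC content, DESeq2 and limma-voom, with 95% intervals as bars. Intervals of AXIN2, NKD1, NOTUM and KREMEN1 lie below 0 in all 4 fits, and those of ZNRF3 and SP5 include 0.

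Levels of different genes were compared as CPM per kilobase of merged exons. In wild type KREMEN1 was highest at 5.84 ± 0.194, followed by ZNRF3 at 2.90 ± 0.108 and NKD1 at 1.26 ± 0.0901 (SD, n = 3). SP5 at 1.07 ± 0.123 and AXIN2 at 1.02 ± 0.0429 had overlapping ranges, and the range of SP5, 0.929 to 1.16, also met that of NKD1, 1.16 to 1.33. NOTUM was lower at 0.706 ± 0.101, and RNF43 stood at 0.0215 ± 0.00464. The place of NKD1 depended on the length used, because its merged exons span 17425 bases and its coding sequence 1410. Per kilobase of coding length NKD1 had 15.5 CPM and ZNRF3 7.19 CPM, with KREMEN1 still highest at 31.5 CPM. On that scale AXIN2 was at 2.11, SP5 at 1.85 and NOTUM at 1.43 CPM per kilobase. By its mean NOTUM was the lowest and KREMEN1 the highest of the 6 tested genes on both scales, but per coding kilobase the ranges of NOTUM and SP5 over the libraries overlapped (the highest NOTUM value was 1.65).

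Some members were also set against a paralog, partner or neighbour within each library, as the log2 ratio of the counts. These 5 pairs were chosen after values were seen. AXIN1, the other AXIN scaffold, had a wild-type mean of 60.6 ± 4.35 CPM and a knockout mean of 57.3 ± 1.98 CPM (SD, n = 3) and did not pass the test (edgeR, adjusted p = 0.364). The log2 ratio of AXIN2 to AXIN1 was -3.42, -3.40 and -3.69 across wild-type replicates 1 to 3 and -3.89, -3.76 and -4.48 across the knockout replicates. The ratio was lower in the knockout by 0.54 in log2 without overlap (ko minus wt -0.54; two-sided exact permutation p = 0.1, the smallest that 3 against 3 libraries allow; adjusted over the 5 ratios 0.167). The ratio of NKD1 to NKD2 was 0.86 ± 0.12 in wild type and 0.87 ± 0.08 in knockout (SD, n = 3; exact permutation p = 0.8). The difference in that ratio, 0.01, was smaller than its spread between libraries.

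LRP6, the co-receptor that DKK1 and KREMEN1 act on, had a wild-type mean of 53.2 ± 1.80 CPM and a knockout mean of 59.7 ± 2.43 CPM (SD, n = 3; log2 fold change 0.17 ± 0.05 SE; edgeR, adjusted p = 0.041). It passed in 10 of 16 alternatives and not with scaling by library size alone, after the GC correction, or when wild-type replicate 2, or knockout 1 or 2, was left out (highest adjusted p = 0.206). The log2 ratio of KREMEN1 to LRP6 was -0.22, -0.11 and -0.25 in wild type and -0.56, -0.77 and -0.66 in knockout, with no overlap (exact permutation p = 0.1, adjusted 0.167). The ratio of KREMEN1 to KREMEN2 was 1.11 ± 0.16 in wild type and 0.84 ± 0.13 in knockout, and its groups overlapped (exact permutation p = 0.2, adjusted 0.25). ZNRF3 and KREMEN1 are neighbours on chromosome 22 on the plus strand, from 28883592 to 29057487 and from 29073078 to 29168333, with 15590 bases between them. The log2 ratio of KREMEN1 to ZNRF3 was 1.20, 1.30 and 1.12 in wild type and 0.93, 0.93 and 0.96 in knockout. The groups did not overlap (exact permutation p = 0.1, adjusted 0.167). With 3 against 3 libraries none of these ratios could pass a threshold of 0.05, and each restates the fold changes of its 2 genes. Among single genes 31.3% of all tested genes did not overlap in either direction, and no such share was taken for ratios.

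The wider pathway was described by 4 lists that hold 110 other genes, of which 66 were tested; 12 fell, GSK3B among them, and 2 rose. Their share that fell, with the targeted gene GSK3B counted in, was 18.2%, and their median log2 fold change was -0.08. Of all tested genes 7.18% fell and 6.36% rose, and these shares also stand beside the counts of each list. These lists too were chosen with earlier results known, so the share describes them and does not test them. Of 14 tested Wnt target genes outside the feedback set 3 fell and 0 rose, with a list median of -0.07. BMP4, a secreted growth factor gene, had a wild-type mean of 3.62 ± 1.23 CPM and a knockout mean of 1.82 ± 0.246 CPM (SD, n = 3), which is -0.99 ± 0.22 on the log2 scale (SE). The Eph receptor gene EPHB2 changed by -0.32 and the transcription factor gene MYC by -0.22, and all 3 passed in each of the 16 alternatives (highest adjusted p 0.036, for BMP4). Among 13 other antagonists and dampeners NKD2 and CTNNBIP1 fell and 0 rose, with a median of -0.13. CTNNBIP1, which encodes a protein that keeps beta-catenin from TCF factors, changed by -0.35 ± 0.10 (SE) but lost its call when wild-type replicate 3, or knockout 2 or 3, was left out (-0.23 without wild-type replicate 3, with the highest adjusted p, 0.0984).

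Of 19 tested genes for receptors, ligands and their transducers 3 fell and 1, LRP6, rose, and the median was -0.11. The Frizzled gene FZD1 changed by -0.48 ± 0.10 (SE) and the Dishevelled gene DVL1 by -0.25 ± 0.05 (SE), and both passed in each alternative, although DVL1 stood at -0.13 after the GC correction (adjusted p = 0.0159; highest over the alternatives 0.0347). The Wnt ligand gene WNT11, with a wild-type mean of 2.21 ± 0.291 CPM and a knockout mean of 1.35 ± 0.284 CPM (SD, n = 3), changed by -0.71 but passed in 7 of 16 alternatives only. WNT11 did not pass in DESeq2, in limma-voom, after the GC correction, without wild-type replicate 2 or 3, or without any of the knockout libraries (highest adjusted p = 0.21; without wild-type replicate 3, -0.60 with adjusted p = 0.138). The 3 Frizzled genes with the highest CPM, FZD6, FZD3 and FZD5, which ZNRF3 and RNF43 can act on, did not pass, at 0.08, 0.12 and -0.10 on the log2 scale. LRP5 stood at -0.11 and LGR4, the R-spondin receptor related to LGR5, at 0.06, and neither passed. In wild type LGR4 averaged 18.6 ± 2.46 CPM and LGR5 0.0407 ± 0.0706 CPM (SD, n = 3). LGR5 had only 7 counts over all 6 libraries.

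Of 20 tested genes of the destruction complex and the nuclear arm 4 fell and 1 rose, with a median of 0.00. Besides GSK3B, the tankyrase genes TNKS2 and TNKS, whose products mark AXIN proteins for turnover, changed by -0.40 ± 0.06 and -0.18 ± 0.05 (SE). TNKS lost its call when wild-type replicate 2, or knockout 2 or 3, was left out (highest adjusted p = 0.104). The casein kinase gene CSNK1E changed by -0.20 and passed in each alternative, with -0.12 after the GC correction (adjusted p = 0.00621; highest over the alternatives 0.0327). APC rose, with a wild-type mean of 73.3 ± 6.63 CPM and a knockout mean of 87.7 ± 5.04 CPM (SD, n = 3; log2 fold change 0.26 ± 0.06 SE; edgeR, adjusted p = 0.00413), and its value was 0.20 to 0.33 over the alternatives; it lost the call without wild-type replicate 2, at 0.22 (adjusted p = 0.0525). CTNNB1, the beta-catenin gene, had a wild-type mean of 425 ± 15.8 CPM and a knockout mean of 427 ± 5.86 CPM (SD, n = 3; log2 fold change 0.01 ± 0.03 SE; adjusted p = 0.915). These are RNA levels and do not measure the amount of beta-catenin protein.

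**Figure D4:**
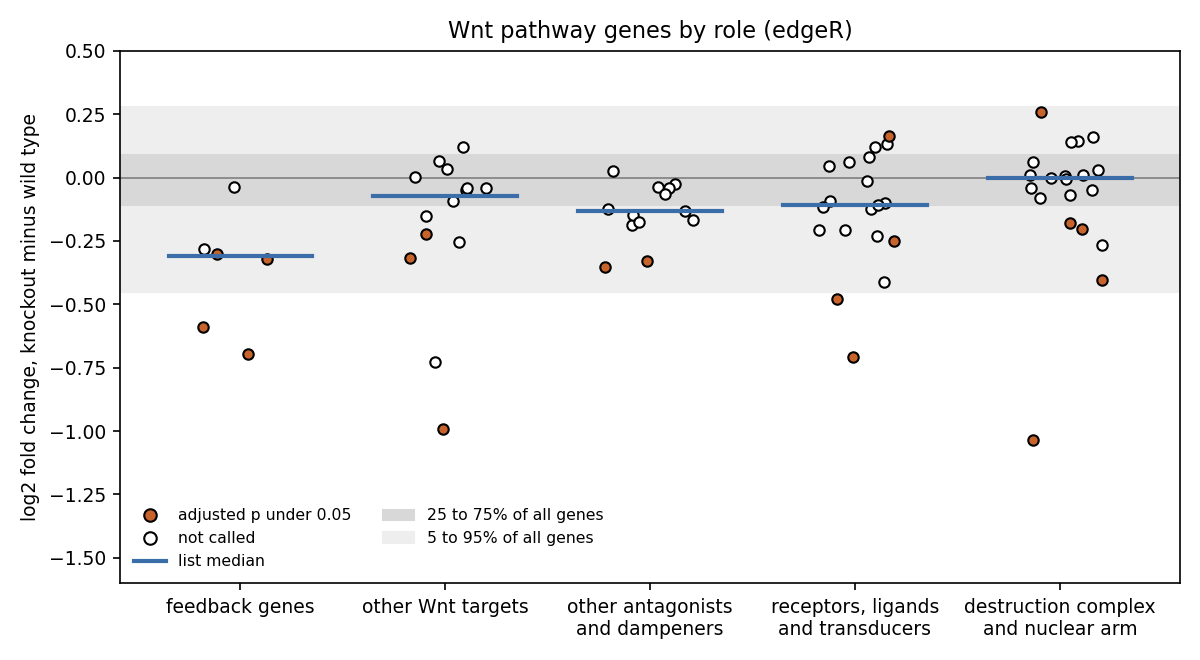
Log2 fold change (vertical axis, knockout minus wild type) of the tested feedback genes and of 4 lists of other Wnt pathway genes, 1 point per gene, filled where the adjusted p was under 0.05. Blue lines are list medians, from -0.31 for the feedback genes to 0.00 for the destruction complex and nuclear arm, and grey bands hold the middle 50% and 90% of all tested genes.

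**Figure D5:**
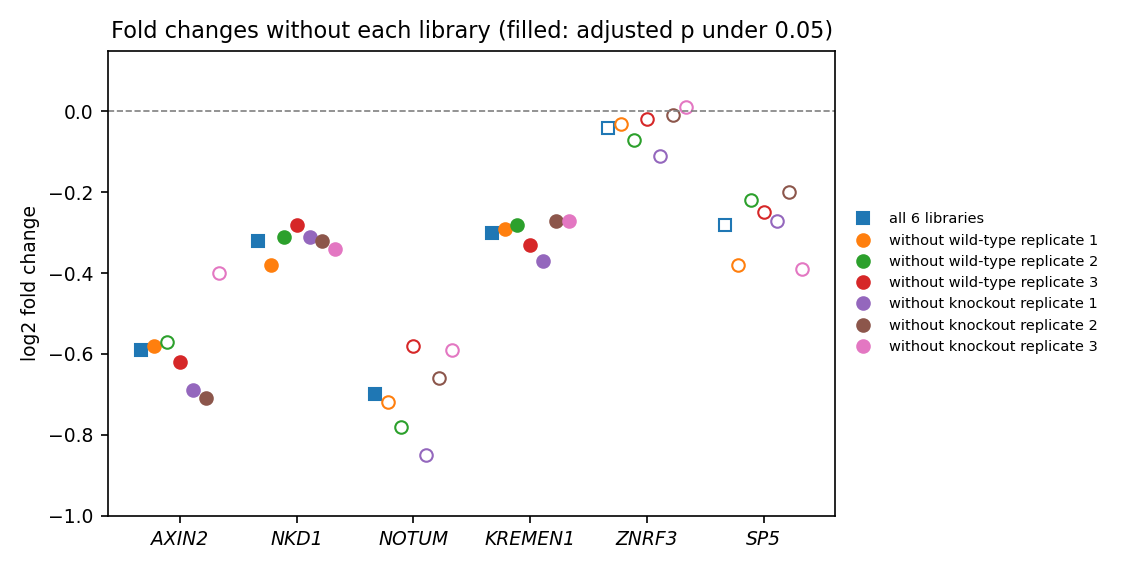
Log2 fold change (vertical axis) of the 6 tested feedback genes with all 6 libraries (squares) and without each library in turn (circles), filled where the adjusted p was under 0.05. NKD1 and KREMEN1 pass throughout, AXIN2 ranges from -0.71 to -0.40 and is not called when wild-type replicate 2 or knockout replicate 3 is left out, and NOTUM passes only with all 6 libraries.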

How the data were processed

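Each library has 1 deposited table of raw counts by gene symbol. The authors, per the submitters' processing notes, used the build hg38 and the tools TopHat, limma and edgeR, without versions or roles; the sources used here do not give the counting program, annotation or strand setting. The members, gene lists, named genes and alternatives were chosen with earlier results of these data known. All 10 members are named, as are up to 6 called genes per list and the direct partners of the members.

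Groups came from sample titles. The analysis used edgeR 4.0.16 (R 4.3.3): filterByExpr (minimum count 10, minimum total 15) kept 14409 genes, followed by TMM scaling, a robust quasi-likelihood fit with group as its term, and Benjamini-Hochberg adjustment over all tested genes. CPM are TMM-scaled, and 95% intervals come from the fold change and its F statistic. Within groups, chi-square per degree of freedom between libraries was 3.17 to 9.71, above sampling noise for each pair. Alternatives were RLE scaling, library size alone, other filters, no robust estimation, DESeq2 1.42.0, limma-voom (limma 3.58.1), the replicate block, a GC correction (spline with 5 degrees of freedom per library; 95.9% of tested genes had a GC content) and leaving out each library. Positions and lengths are from GENCODE 29 and promoters from RefSeq (GRCh38.p14). The test was tested on simulated data, where false calls exceeded the share that the threshold allows.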

Additional observations from a re-analysis of the deposited data

How the results depend on the processing

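The direction and call of GSK3B, NKD1 and KREMEN1 held in all 16 alternatives, and SP5 stayed negative and uncalled in all 16, from -0.39 to -0.16. The number of feedback genes that fell was 4, and 2 to 3 without 1 library, and 0 rose in each alternative. Of all tested genes 7.18% fell and 6.36% rose with all 6 libraries, and 4.03% to 8.72% fell without 1 library. AXIN2 ran from -0.71 to -0.40 in the fits without 1 library. NOTUM did not pass without robust estimation, in DESeq2 or in limma-voom (-0.70 in each; adjusted p = 0.0531, 0.0715 and 0.056), with the GC correction (-0.58, adjusted p = 0.0795) or without any 1 library (-0.85 to -0.58). ZNRF3, never called, stood at 0.01 with the GC correction, at 0.01 with this correction and the replicate block, and ran from -0.11 to 0.01 without 1 library; the cause was not tested.

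Over all tested genes 1951 were called, 3042 with the GC correction, 3058 with this correction and the replicate block, and 950 to 2531 without 1 library. Of the called genes 47.0% were higher; scaling by library size alone gave 34.6% and the GC correction 65.0%. In the 4 other Wnt lists 2 genes were higher, and 1 with library size alone. The number was 4 with the GC correction, 4 with this correction and the replicate block, and 0 to 4 without 1 library. Over the alternatives 8 to 13 genes of these lists were lower, beside 4.03% to 8.72% of all tested genes.

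The labels do not say whether same-numbered libraries were paired. The correlations of their deviations from the group means were 0.07, 0.00 and 0.03, and not every library correlated best with its own number. Whether they were prepared together was not tested, and these correlations cannot decide it. With the replicate block 2193 genes were called, NOTUM stood at -0.70 (adjusted p = 0.0514), or -0.58 with the GC correction as well (adjusted p = 0.0858), and no other member changed its call. Depth limits RNF43, LGR5, DKK1 and APCDD1, which have no fold change under the filter and so no alternatives, and leaves wide intervals for NOTUM and SP5.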
